A study of Mus musculus with 21 samples.

Results

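The genes described here encode the protein components of the cytosolic ribosome. They are the rows of the deposited gene count table whose symbol is Rpl or Rps with a number, with or without a final a, l or x, together with the stalk proteins Rplp0, Rplp1 and Rplp2. The rule takes 80 of the 24062 genes in the table, 49 of the large subunit and 31 of the small subunit, and it uses no measured value. Genes of the ribosome with other symbols, among them Rpsa, Rps3a1, Fau and the Rack1 gene (listed as Gnb2l1), fall outside it.

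Total RNA from mouse colon was sequenced in 21 libraries, 3 in each of 7 groups, all on a C57BL/6 background. Wild-type males gave normal colon (WMN) and tumours (WMT), and wild-type females gave normal colon (WFN) and tumours (WFT). Males of the App NL-G-F knock-in line, whose zygosity the labels do not give, gave normal colon (KMN) and tumours (KMT), and knock-in females gave normal colon (KFN). Tumour samples carry the treatment label AOM/DSS, a carcinogen (azoxymethane) followed by a colitis-inducing polymer (dextran sulfate sodium), and normal samples carry the label of no treatment. By these labels tumour tissue and treatment go together, so a tumour effect below cannot be told apart from an effect of the treatment. The series' design text speaks of tissue next to tumours as well as colon without tumours, so which mice gave the normal samples cannot be told from the labels. Tumours of knock-in females were not analysed here, and the animals' ages are not given in the sources used here. App NL-G-F mice carry a mutated App gene with a humanised amyloid-beta stretch at its own locus, and the study asked how this background and sex bear on colon tumours.

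In each ribosome these proteins surround the ribosomal RNA. The small subunit reads the messenger RNA, the large subunit joins amino acids, and the stalk of P proteins on the large subunit recruits the elongation factors. Messenger RNAs of ribosomal proteins begin with a run of pyrimidines, the 5′ terminal oligopyrimidine (TOP) element, through which mTORC1 and Larp1 adjust their translation together. In the intestine the crypt cells divide fast, and ribosome production is known to be raised by Myc in colon tumours.

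Pyrimidine runs around the annotated starts vary in length and place. Any run near the start was searched for, so which starts carry the TOP element itself was not measured. Printed here are the 30 bases before and 15 bases from a RefSeq start (GRCm38.p6) of each member on which the results turn. For a member with several starts, the start with the longest pyrimidine run was taken. The longest pyrimidine run within the 30 bases centred on the start is in capitals, and where runs tie in length, as in Rps7, the first of them. They are shown because Rps9, Rplp2, Rps2, Rps13 and Rpl28 were higher in KFN than in WFN, and Rpl9, Rps7, Rpl39 and Rpl37a were lower in wild-type tumours. Each window spans the promoter and the first bases of the first exon, written 5′ to 3′ on the gene's strand.
Rps9 (chr7:3704011-3704055, plus strand): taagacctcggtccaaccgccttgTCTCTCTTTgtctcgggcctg
Rplp2 (chr7:141447621-141447665, plus strand): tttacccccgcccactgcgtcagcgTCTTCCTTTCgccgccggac
Rpl28 (chr7:4792935-4792979, plus strand): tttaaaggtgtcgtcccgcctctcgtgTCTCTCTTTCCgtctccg
Rps2 (chr17:24720033-24720077, plus strand): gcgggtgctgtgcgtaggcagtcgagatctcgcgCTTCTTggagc
Rps13 (chr7:116334176-116334220, minus strand): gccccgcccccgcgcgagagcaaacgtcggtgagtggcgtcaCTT
Rpl9 (chr5:65391417-65391461, minus strand): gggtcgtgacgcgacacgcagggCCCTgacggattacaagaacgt
Rps7 (chr12:28635939-28635983, minus strand): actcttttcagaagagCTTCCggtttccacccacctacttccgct
Rpl39 (chrX:37085208-37085252, minus strand): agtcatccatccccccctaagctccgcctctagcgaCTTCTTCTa
Rpl37a (chr1:72711230-72711274, plus strand): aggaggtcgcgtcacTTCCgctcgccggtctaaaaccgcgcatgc

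RefSeq entries were found for 59 of the 80 members. In the shares below, a gene was counted if any of its RefSeq starts had the feature. A run of at least 8 pyrimidines on the coding strand lay within the 30 bases around the start in 26 of these 59 members, or 44.07%, against 13.91% of the 27025 genes with an entry. On the opposite strand the shares were 5.08% and 15.26%. The motif CCGGAAGT, which ETS factors bind, was found on either strand of the 300-base promoter in 18.64% of members and in 4.31% of all genes. The motif AAGATGGCG of the factor YY1 was found in 5.08% and 1.64%. Among the windows printed, those of Rps9, Rplp2, Rpl28 and Rpl39 hold a run of at least 8, and the other windows have runs of 3 to 6. The annotated start may lie some bases from the start used in colon, so a short run says only that these letters are not in this window.

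Library totals ran from 3414123 counts in WMT replicate 2 to 26174008 in WFN replicate 1. Levels are given as CPM, a gene's count per 1e+06 counts of the library after scaling with TMM factors. The sex labels fitted the counts of Xist, at 15258 to 88731 in female and 13 to 267 in male libraries, and App itself ran from 449 to 1003 CPM over all libraries, which does not check a knock-in of point mutations. KMT replicate 3 held 40738 counts over 10 skeletal muscle genes, a list chosen after values were seen, against 52 to 801 in the other libraries. KMN replicate 3 held 14.1% of its counts in the ribosomal RNA gene Rn45s, the largest share of the 21. Counts of called members that rest on either library are given below also without it. Nothing in the labels says that replicates are separate animals, so p-values measure the spread between these samples, which may be technical.

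Ribosomal protein genes held between 1.72% and 2.59% of all gene counts. The share was 2.21%, 2.19% and 2.17% in WMN, 2.15%, 1.98% and 2.11% in WMT, 2.32%, 2.27% and 1.72% in KMN, and 1.73%, 2.15% and 2.08% in KMT. In the females it was 1.98%, 2.03% and 2.32% in WFN, 2.38%, 1.93% and 2.03% in WFT, and 2.36%, 2.48% and 2.59% in KFN. All 3 KFN libraries lay above every male library and above 5 of the 6 wild-type female libraries, while among the other 6 groups WMN lay above every WMT and KMT library and other pairs overlapped. This arrangement depends on the denominator. Without Rn45s and mitochondrial genes in it, the share was 2.48% to 2.73% in KFN, which overlapped KMN, in which it reached 2.51%, and WFT, in which it reached 2.65%, and WMN, at 2.28% to 2.40%, overlapped WMT at 2.24% to 2.42% and KMT at 1.88% to 2.31%. With all counts in the denominator, the group means ± SD (n = 3) were 2.48% ± 0.118 in KFN and from 1.99% ± 0.222 in KMT to 2.19% ± 0.0191 in WMN in the others. The widest 95% Wilson interval of a library's share reached 0.0148 percentage points to one side, so counting error was small beside the spread between libraries. The 2 lowest libraries were KMN replicate 3 and KMT replicate 1, and the low value in KMN stands beside the Rn45s share of that library. No test was made of this sum. The ratio of large-subunit to small-subunit counts was between 1.57 and 1.83 in all libraries, with the highest value in KMN replicate 3.

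**Figure D1:**
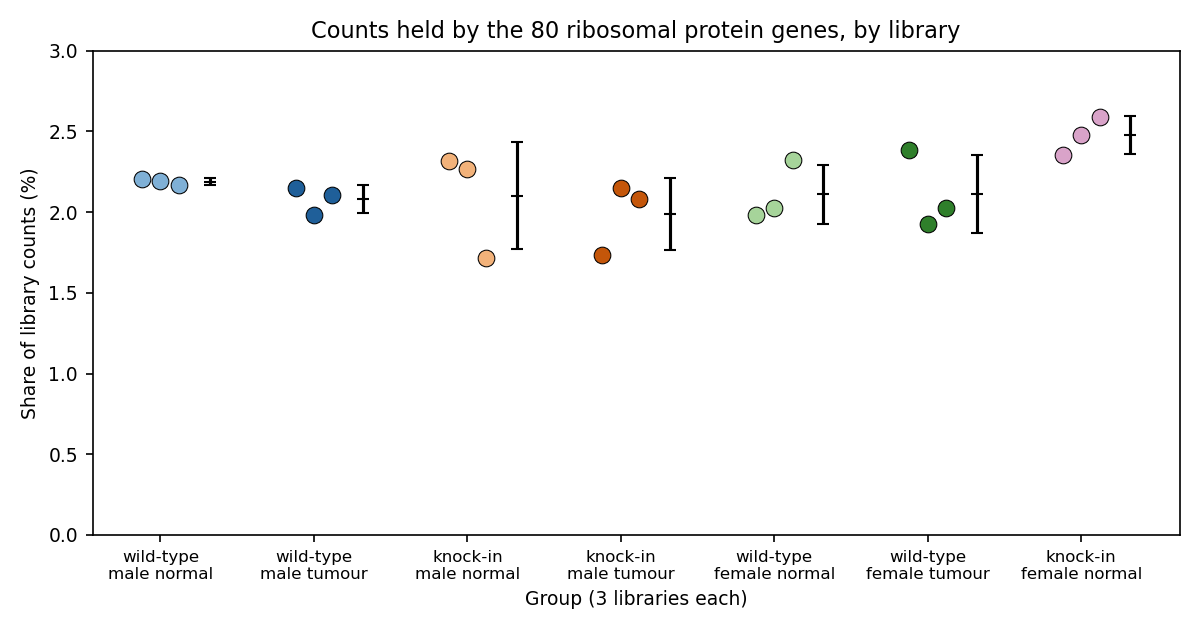
Share of each library's gene counts held by the 80 ribosomal protein genes (y axis, %), by group (x axis); points are libraries, the bar beside them the mean and SD of 3. The KFN libraries sit between 2.36% and 2.59%, and single libraries of KMN and KMT fall to 1.72% and 1.73%.

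Of the 80 members, 75 passed the filter on low counts, beside 15936 genes in all, and 72 had a mean of at least 50 counts per library. Per kilobase of coding sequence, Rpl41, the shortest ribosomal protein at 75 coding bases, stood highest at 6511 CPM. It was followed by the stalk proteins Rplp1 at 1457 and Rplp0 at 1309 CPM per kilobase, and by Rps29 at 1012. The lowest of the 72 were Rpl21 at 127 and Rps27l at 188 CPM per kilobase. Coding length includes no untranslated part, so genes with long untranslated parts are overstated on this scale.

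The members missing from that set were near 0, and several share their sequence with another gene. Rpl26 and Rpl10l had 0 counts in all 21 libraries, which allows up to 3 counts in each, and Rpl39l had 1 count in all. Rpl30 had 0 to 14, Rpl34 0 to 22 and Rps27 2 to 20 counts per library. Rps27 is identical over its coding sequence to Rps27rt, and Rpl26, Rpl30 and Rpl34 match Gm15772, Gm12191 and Rpl34-ps1 over 99.54%, 99.71% and 99.43% of bases. These 4 copies have rows of their own in the table, with 0 counts in every library for Rps27rt, Gm15772 and Rpl34-ps1 and at most 4 for Gm12191. How reads that match several genes were counted is not given in the sources used here, so a level near 0 for these genes does not show that they were silent. In all, 67 of the 79 members with a coding sequence had at least 1 other annotated gene within 97% identity, with a median of 3 and up to 32 for Rpl21, and levels of those members are uncertain to that extent. Some members with many counts had copies too. Rpl41, with 4 fully identical genes that have no rows in the table, had 121264 counts over all libraries. Rplp2, at 99.42% identity to Wdr89, which has a row, had 61063. Why some members were near 0 was not tested. Rps4l, with 2 to 47 counts, has no coding sequence in the annotation used.

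Paralogs that other tissues use had few counts. Rpl10l and Rpl39l, the testis paralogs of Rpl10 and Rpl39, are at 0 and 1 count as given above. Rpl3l, the paralog of Rpl3 in striated muscle, had 0 to 6 counts in 20 libraries and 106 in KMT replicate 3, the library with the skeletal muscle counts. Rpl3 itself ran from 470 to 764 CPM. Rps27l, a p53 target and paralog of Rps27, was well measured at 28.4 to 65.9 CPM.

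The 72 well-measured members were steady between replicates. Their median coefficient of biological variation between replicates was 13.2%, against 15.4% for all 12510 genes of at least 50 counts on average. The group with the highest mean exceeded the lowest by 1.42-fold in the median member, by 1.13-fold in the steadiest and by 2.20-fold in Rpl21, against a median of 1.74-fold for all those genes. The mean correlation between pairs of members across the 21 libraries was 0.506, a description over libraries that share depth and scaling. KFN was the group with the highest mean for 53 of the 72 and KMT the lowest for 43. Rps27l, Rps2 and Rpl7 did not follow the others: their correlation with the mean of the rest was -0.21, -0.14 and -0.06, while Rps16 reached 0.933.

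Tumours of wild-type males held less of 4 ribosomal protein mRNAs, and none was called higher. In this comparison, of WMT with WMN, 4 of the 75 tested members were lower and none higher, while 35.7% of all tested genes were called (16.5% higher, 19.3% lower). The 4 were Rpl9, Rps7, Rpl39 and Rpl37a, all but Rps7 of the large subunit. The median log2 fold change over the 75 was -0.11, against 0.01 over all tested genes, and 55 of 75 were below 0.
Rpl9, a large-subunit protein near the base of the stalk, stood at 276, 256 and 298 CPM in WMN and at 179, 214 and 181 CPM in WMT. The groups did not overlap, and it fell by 0.53 on the log2 scale (SE 0.12, adjusted p = 0.0017; all adjusted p-values are from the edgeR quasi-likelihood fit, adjusted by Benjamini-Hochberg over every tested gene). Rps7, a small-subunit protein that can also bind Mdm2, stood at 319, 321 and 330 CPM in WMN and at 240, 238 and 228 CPM in WMT. These groups were also apart, and the fall was 0.46 (log2 fold change -0.46, SE 0.14, adjusted p = 0.019). Rpl39, a small protein lining the exit tunnel, went from 145, 135 and 147 to 114, 89.1 and 111 CPM (log2 fold change -0.44, SE 0.15, adjusted p = 0.026), and Rpl37a, a zinc-binding protein, had a log2 fold change of -0.36 (adjusted p = 0.023). No library of either gene in WMT reached the lowest WMN library.
Rpl9 passed the threshold under all 18 alternatives run, with log2 fold changes between -0.62 and -0.48. Rps7 missed it without WMN replicate 3 or WMT replicate 3 (adjusted p = 0.057 and 0.060). Rpl39 missed it with library totals (adjusted p = 0.051) and without WMN replicate 3 or WMT replicate 2 (adjusted p = 0.080 and 0.12). The count was 1 without WMN replicate 3 and 2 without WMT replicate 2, and it was 12, all lower, when only these groups were fitted. Library totals in place of TMM gave 1 higher and 3 lower.

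In wild-type female tumours, members were called in both directions. Comparing WFT with WFN, 2 members were higher and 13 lower of 75, while 49.1% of all tested genes were called (25% higher, 24% lower). The higher ones were Rps2 and Rps9, which lie near the path of the mRNA into the small subunit. Those lower included Rpl9, Rps29, Rpl37a, Rps28, Rps7, Rpl37, Rpl32, Rpl39, Rpl31, Rpl18 and Rps16, with log2 fold changes from -0.55 to -0.32. Another, Rps4l, rests on 34, 6 and 20 counts in WFN and on 6, 2 and 6 in WFT, and its call was lost in 7 of 16 alternatives. The median over the 75 was -0.15, against 0.01 over all tested genes.
Rps2 was at 362, 377 and 365 CPM in WFN and at 485, 484 and 542 CPM in WFT. All WFT libraries were higher, by 0.45 on the log2 scale (SE 0.098, adjusted p = 0.00087), and the call held under all 18 alternatives run, between 0.39 and 0.59. Rps9 was at 296, 264 and 318 CPM in WFN and at 356, 363 and 380 CPM in WFT, also without overlap (log2 fold change 0.32, SE 0.11, adjusted p = 0.022). Rps9 missed the threshold without WFN replicate 2 (adjusted p = 0.10) and without WFT replicate 3 (adjusted p = 0.071), and with the covariate described below (adjusted p = 0.15).
Rpl9 was at 304, 295 and 268 CPM in WFN and fell to 181, 199 and 212 CPM in WFT (log2 fold change -0.55, SE 0.12, adjusted p = 0.00068). It again held under all 18 alternatives run. Rps29, a zinc-binding protein of the small-subunit head, was at 191, 193 and 232 CPM in WFN and at 169, 133 and 129 CPM in WFT (log2 fold change -0.52, SE 0.19, adjusted p = 0.034). Its call was lost without WFN replicate 3, WFT replicate 2 or WFT replicate 3 (adjusted p from 0.10 to 0.12), with library totals (adjusted p = 0.12) and with the covariate described below (adjusted p = 0.095).
The count of 15 became 8 without WFN replicate 3, 24 without WFT replicate 1, 6 without WFT replicate 2 and 5 without WFT replicate 3. WFT replicates 2 and 3 have running numbers 152 and 153 in the labels, apart from the others of the group, and with these numbers as a covariate the count was 4. Scaling by library totals, which moved the median of all genes up by 0.14 here, gave 4 higher and 2 lower, and the members' median then lay 0.17 below that of all genes.

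Knock-in male tumours held less of 7 members than knock-in male colon, and none was higher. Comparing KMT with KMN, 7 of 75 members, or 9.33%, were lower, while 20.4% of all tested genes were called (10.4% higher, 9.97% lower). The share called lower was thus close to that of all genes. The 7 members included Rpl36, Rps15, Rpl37a, Rpl31, Rpl28 and Rps28. The median over the 75 was -0.15, against 0.01 over all tested genes. Only Rpl37a is also among those lower in wild-type males and in wild-type females.
Rpl36, a large-subunit protein with the highest GC content of the tested members, was at 152, 110 and 169 CPM in KMN and at 58.3, 88.9 and 95.3 CPM in KMT. No KMT library reached the lowest KMN library, and the log2 fold change was -0.83 (SE 0.19, adjusted p = 0.0073). Rps15, of the small-subunit head, went from 280, 207 and 223 to 135, 159 and 172 CPM (log2 fold change -0.61, SE 0.17, adjusted p = 0.020). Rpl37a went from 273, 228 and 228 to 152, 179 and 177 CPM (log2 fold change -0.52, SE 0.12, adjusted p = 0.0065). Rpl36 and Rpl37a missed the threshold when only these groups were fitted, and under that fit none of the 75 passed.
Rpl9 and Rps7, lower in both wild-type tumour groups, did not pass here: Rpl9 stood at 264, 287 and 225 CPM in KMN and at 214, 259 and 226 in KMT (log2 fold change -0.15, adjusted p = 0.35). Rps7 had a log2 fold change of 0.02. The difference between the knock-in and the wild-type tumour effect in males was itself tested, and it was 0.38 for Rpl9 (SE 0.16, adjusted p = 0.16) and 0.48 for Rps7 (SE 0.20, adjusted p = 0.16), so neither was shown to differ. For Rpl36 the same difference was -0.73 (SE 0.27, adjusted p = 0.11).
The count of 7 became 9 without KMT replicate 3 and 5 without KMN replicate 3. It became 12 without KMN replicate 2 and 2, Rpl36 and Rpl37a, without KMT replicate 1, and Rps15 was lost without KMN replicate 1 or KMT replicate 1 (adjusted p = 0.063 and 0.053) and with offsets for GC content and coding length (adjusted p = 0.061).

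**Figure D2:**
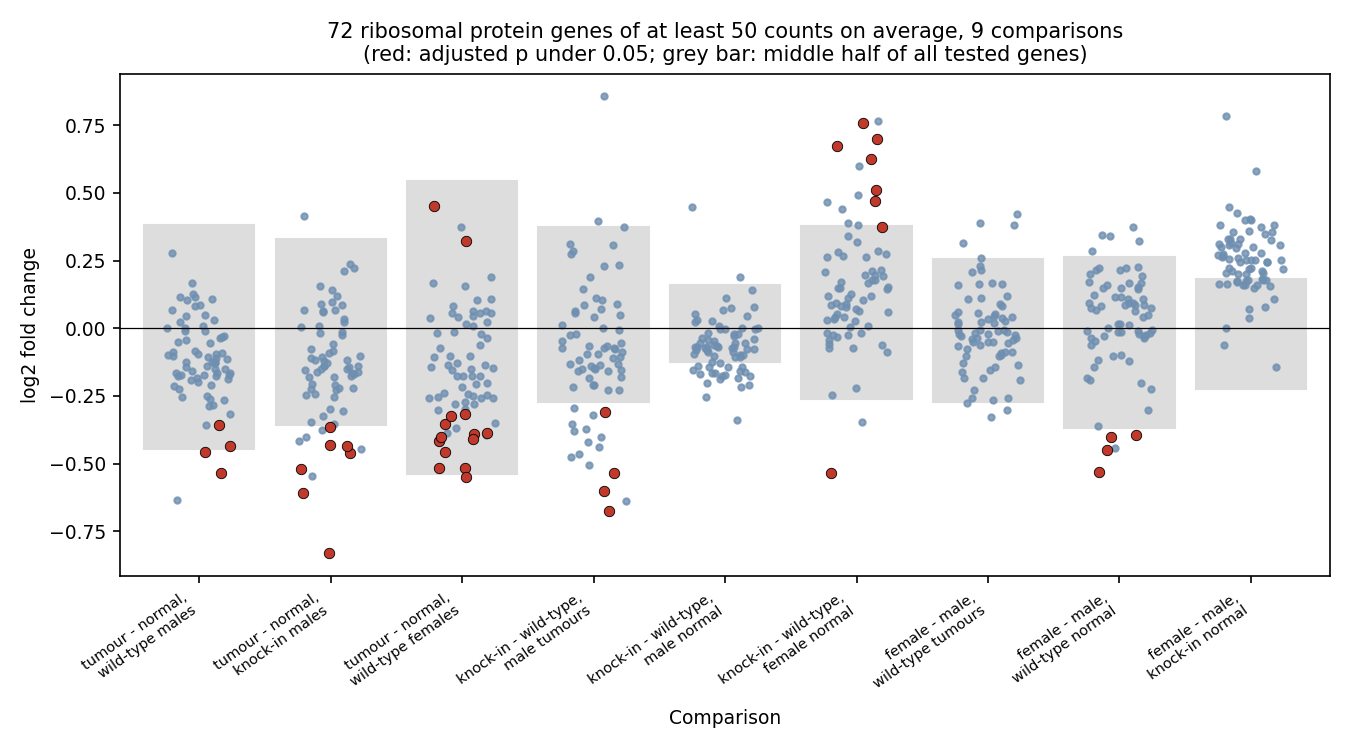
Log2 fold change (y axis) of the 72 ribosomal protein genes with at least 50 counts on average in 9 comparisons (x axis); each point is a gene, red where the adjusted p is under 0.05, and grey bars span the middle 50% of all tested genes. More points lie below 0 than above in the 3 tumour comparisons, and more lie above 0 in both comparisons of KFN.

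Markers of other cell types moved with the tumours. The summed level of 8 smooth muscle markers was 3001 to 9985 CPM in WMN and 278 to 872 in WMT, 4801 to 8439 in KMN and 930 to 1169 in KMT, and 2070 to 4753 in WFN and 227 to 278 in WFT. All 8 were lower in each tumour comparison, and of 9 colonocyte markers 8, 5 and 9 were lower in wild-type males, knock-in males and wild-type females. Of 6 proliferation markers 3, 6 and 6 were higher. Of 6 B cell markers 0, 4 and 4 were lower, and of 6 neuron and glia markers 4, 1 and 2 were lower. Of 6 myeloid markers 1, 0 and 5 were higher. Of 6 fibroblast markers 0, 1 and 4 were higher and 1, 0 and 1 lower, and of 5 epithelium markers 1, 1 and 1 were higher and 3, 0 and 4 lower. None of 6 T cell markers passed in any of the 3. A single neuron and glia marker was at 0 in all WFT libraries, and no other marker of these lists was at 0 in all libraries of these groups. Their part in the members' values was not tested, and in bulk tissue fewer cells of a type and less RNA per cell cannot be told apart.

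Other genes of the translation machinery were compared as lists fixed by name. Of 14 elongation factors and further TOP mRNAs, 5 were higher and 1 lower in wild-type male tumours, 4 and 0 in knock-in males, and 5 and 1 in wild-type females. Pabpc1, the poly(A)-binding protein, was higher in all 3 comparisons, by 0.71, 0.66 and 1.39 on the log2 scale, and Tpt1 was lower in the wild-type ones, at log2 fold changes of -0.40 and -0.34. Of 12 eIF3 subunits 3, 0 and 4 were higher and none lower. Of 77 mitochondrial ribosomal proteins 2 were higher and 5 lower, 4 and 2, and 4 and 12. Respiratory chain subunits, with a median coding length of 417 bases against 454.5 for the tested ribosomal protein genes, were lower for 47, 22 and 64 of 74, and higher for 2, 1 and 2. Their median log2 fold changes were -0.49, -0.30 and -0.65. Whether any list differed from the ribosomal protein genes was not tested.
Ribosomal proteins outside the symbol rule were mixed. Fau, whose protein is made as a fusion to a ubiquitin-like protein, was lower in wild-type female tumours (log2 fold change -0.68). Rpl7l1 was higher in wild-type female tumours by 0.46. In wild-type male tumours none of the 6 tested passed. Rps3a1 and Gnb2l1, added after seeing which rows exist, passed in no tumour comparison.

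**Figure D3:**
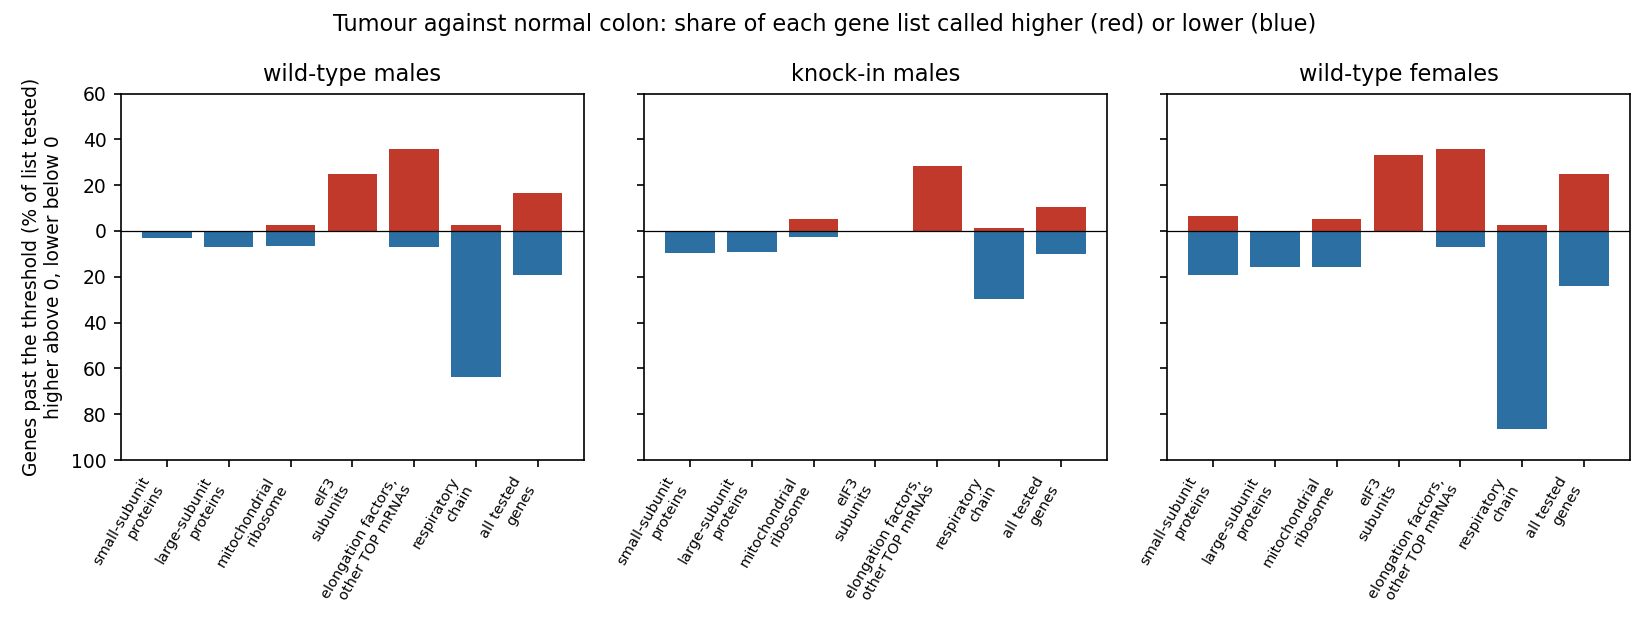
Share of each gene list (x axis) called higher (red, above 0) or lower (blue, below 0) in tumours against normal colon (y axis, % of genes tested), for 3 comparisons. Ribosomal protein bars are shorter than those of all tested genes in wild-type males, and the respiratory chain bars reach 47, 22 and 64 of 74 genes lower.

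Between genotypes, male tumours differed in a few members. Comparing KMT with WMT, 5 of 75 members, or 6.67%, were lower and none higher, with 14.5% of all tested genes called (9.3% higher, 5.23% lower). The share called lower was thus close to that of all genes. The 5 members were Rps15, Rpl36, Rpl19, Rpl7a and Rps27. The last rests on 2, 8 and 2 counts in KMT and 20, 2 and 18 in WMT, where the library with 2 is the shallowest of all.
Rpl36 was at 132, 115 and 140 CPM in WMT and at 58.3, 88.9 and 95.3 in KMT (log2 fold change -0.68, SE 0.19, adjusted p = 0.028). Rps15 was at 246, 196 and 264 CPM in WMT and at 135, 159 and 172 in KMT (log2 fold change -0.60, SE 0.17, adjusted p = 0.029). Rpl19, a large-subunit protein that reaches the small subunit, was at 345, 347 and 387 CPM in WMT and at 214, 251 and 279 in KMT (log2 fold change -0.54, SE 0.13, adjusted p = 0.017). In all 3 genes every KMT library was below every WMT library.
Rpl22l1, the paralog of Rpl22 outside the rule, was higher in KMT by 0.94 on the log2 scale (SE 0.19, adjusted p = 0.0077). Rpl22, with which it is known to be cross-regulated, was not called (-0.06, adjusted p = 0.80). Rpl22l1 was also higher in WFT than in WMT, by 0.83 (SE 0.19, adjusted p = 0.048). Its tumour effect was not shown to differ between genotypes in males (0.76, SE 0.27, adjusted p = 0.10).
The calls depended on single libraries: 2 members passed without WMT replicate 1, 0 without WMT replicate 3, 2 without KMT replicate 1, 1 without KMT replicate 2 and 7 without KMT replicate 3. With offsets for GC content and coding length 3 passed, and Rpl36 and Rps15 moved to -0.31 and -0.32 (adjusted p = 0.16 for both).

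In several comparisons the fold change of members went with the GC content of their coding sequence. Over the 72 members the correlation of log2 fold change with GC was -0.57 for KMT against WMT and -0.53 for KMT against KMN. It was -0.65 for WFT against WMT, 0.24 for KFN against WFN and 0.26 for WMT against WMN. Over all tested genes with a coding sequence it was -0.27, -0.25, -0.28, 0.26 and 0.08 in the same order. Over all tested members, those with few counts included, it was -0.34, -0.34, -0.53, 0.23 and 0.15. Within libraries, the correlation of a member's deviation from its mean level with GC was between -0.50 and -0.34 in KMT and from -0.14 to 0.57 in WMN, and libraries of the same group differed widely in KMN, from -0.49 to 0.56. These are descriptions over 72 genes that share each library, and over all genes of at least 50 counts the same measure ran from -0.30 to 0.52. The members cover 45.1% to 61.6% GC. Shorter members were relatively higher in WFN, where the correlation with log2 coding length was -0.33, -0.44 and -0.52, and lower in KMT, where it was 0.52, 0.46 and 0.28.

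**Figure D4:**
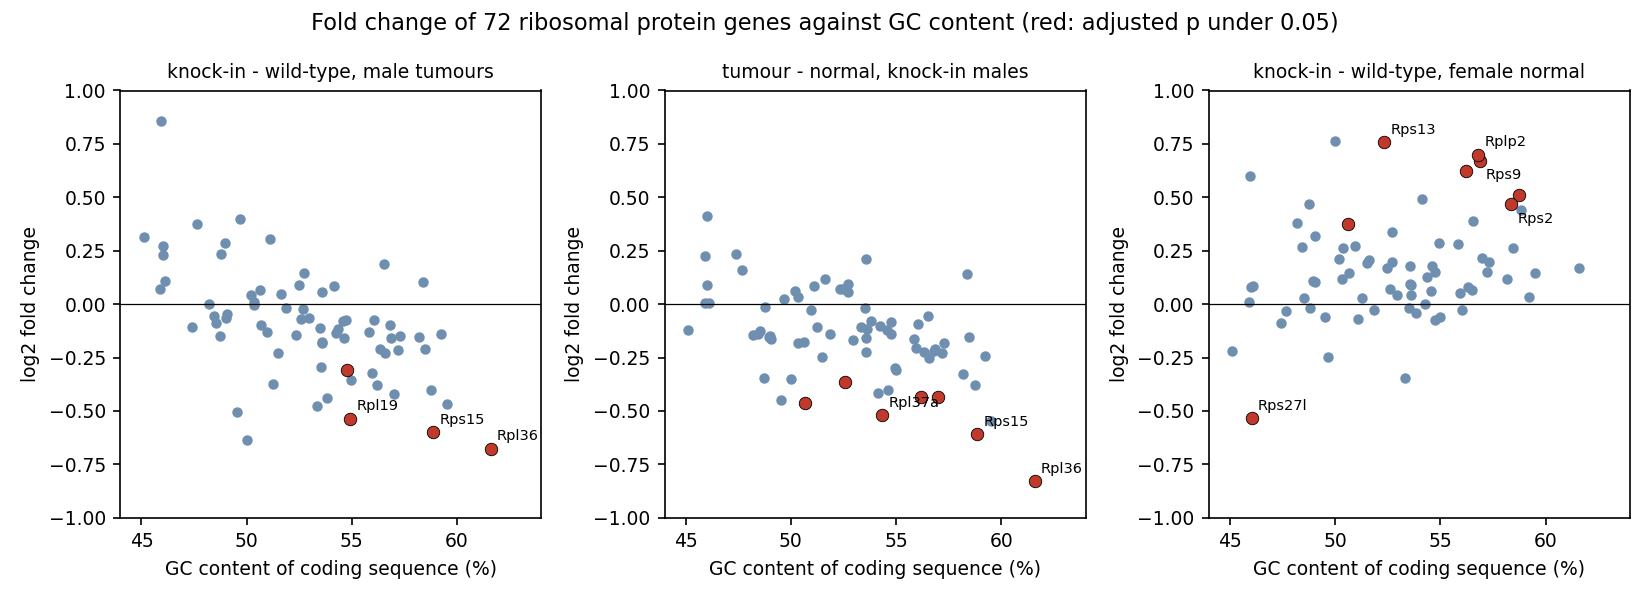
Log2 fold change (y axis) of the 72 ribosomal protein genes against the GC content of their coding sequence (x axis, %), in 3 comparisons; red points have an adjusted p under 0.05, and 9 genes described in the text carry their names where called. In both comparisons with KMT the points slope down, with correlations of -0.57 and -0.53, and Rpl36 lies at the GC-rich end.

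No member passed between genotypes in normal colon of males. Comparing KMN with WMN, 0 of 75 members passed by edgeR and 0 by DESeq2. Of all tested genes 0.0126% were called (0.00628% higher, 0.00628% lower). An unadjusted p under 0.05 was found for 1 member and for 532 of the 15936 tested genes. The members with the smallest p were Rpl12 (log2 fold change 0.45, SE 0.18) and Rpl27 (0.19, SE 0.11), both at an adjusted p of 1.00. The median over the 75 was -0.07, and it was 0.04 without KMN replicate 3, where 0 members passed as well.

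In normal colon of females, 7 ribosomal protein mRNAs were called higher in knock-in mice, a share close to that of all tested genes. Comparing KFN with WFN, 7 members were higher and 1 lower of 75, or 10.7% called in all. Of all tested genes 16% were called (8.97% higher, 7% lower). The higher members included Rps13, Rps9 and Rps2 of the small subunit, Rpl28 and Rpl8 of the large subunit, and Rplp2 of the stalk. The median over the 75 was 0.14, against 0.02 over all tested genes, and 60 of 75 were above 0.
Rps13, which forms part of a bridge between the subunits, was at 109, 126 and 132 CPM in WFN and at 194, 202 and 223 CPM in KFN. The groups did not overlap, and the difference was 0.76 in log2 units (SE 0.16, adjusted p = 0.0042). Rplp2, a P protein of the stalk, was at 174, 193 and 195 CPM in WFN and at 275, 334 and 304 in KFN (log2 fold change 0.70, SE 0.14, adjusted p = 0.0033). Rps9 was at 296, 264 and 318 CPM in WFN and at 414, 488 and 499 in KFN (log2 fold change 0.67, SE 0.11, adjusted p = 0.00077).
These 3 genes passed under all 15 alternatives run, and their log2 fold changes stayed between 0.60 and 0.90. The other stalk proteins did not pass: Rplp0, the most abundant member, was at 1411, 1291 and 1411 CPM in WFN and at 1384, 1324 and 1330 in KFN (log2 fold change -0.03, adjusted p = 0.90), and Rplp1 had a log2 fold change of 0.12 (adjusted p = 0.65). Rps2 went from 362, 377 and 365 CPM to 517, 512 and 500 (log2 fold change 0.47, SE 0.098, adjusted p = 0.0039), again without overlap.
The one lower member was Rps27l, at 54.9, 54.5 and 50.8 CPM in WFN and at 39.7, 33.5 and 37.3 in KFN (log2 fold change -0.54, SE 0.15, adjusted p = 0.023). Its call was lost without WFN replicate 1 or 2 or without KFN replicate a or b (adjusted p from 0.056 to 0.11), and with GC and length offsets it was -0.12 (adjusted p = 0.56).
The count of 8 became 5 without WFN replicate 2. Library totals, which moved the median of all genes up by 0.088 here, gave 15 higher and 0 lower. The members' median then lay 0.12 above that of all genes. DESeq2's test gave 13 higher and 1 lower. Shares of all genes called under these settings are not given here. Markers of other cell types moved too: the 8 smooth muscle markers summed to 2070 to 4753 CPM in WFN and 7231 to 10088 in KFN, with 4 higher, and the 6 fibroblast markers to 1126 to 1369 and 2172 to 2746, with 3 higher. None of either list was at 0 in all libraries, and their part was not tested.
Of the 14 elongation factors and other TOP mRNAs, 5 were higher in KFN and none lower: Eef2, Eif4b, Eef1g, Vim and Eef1a1, with log2 fold changes from 0.35 to 1.22. Of the 74 respiratory chain subunits none was higher and 6 were lower.

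**Figure D5:**
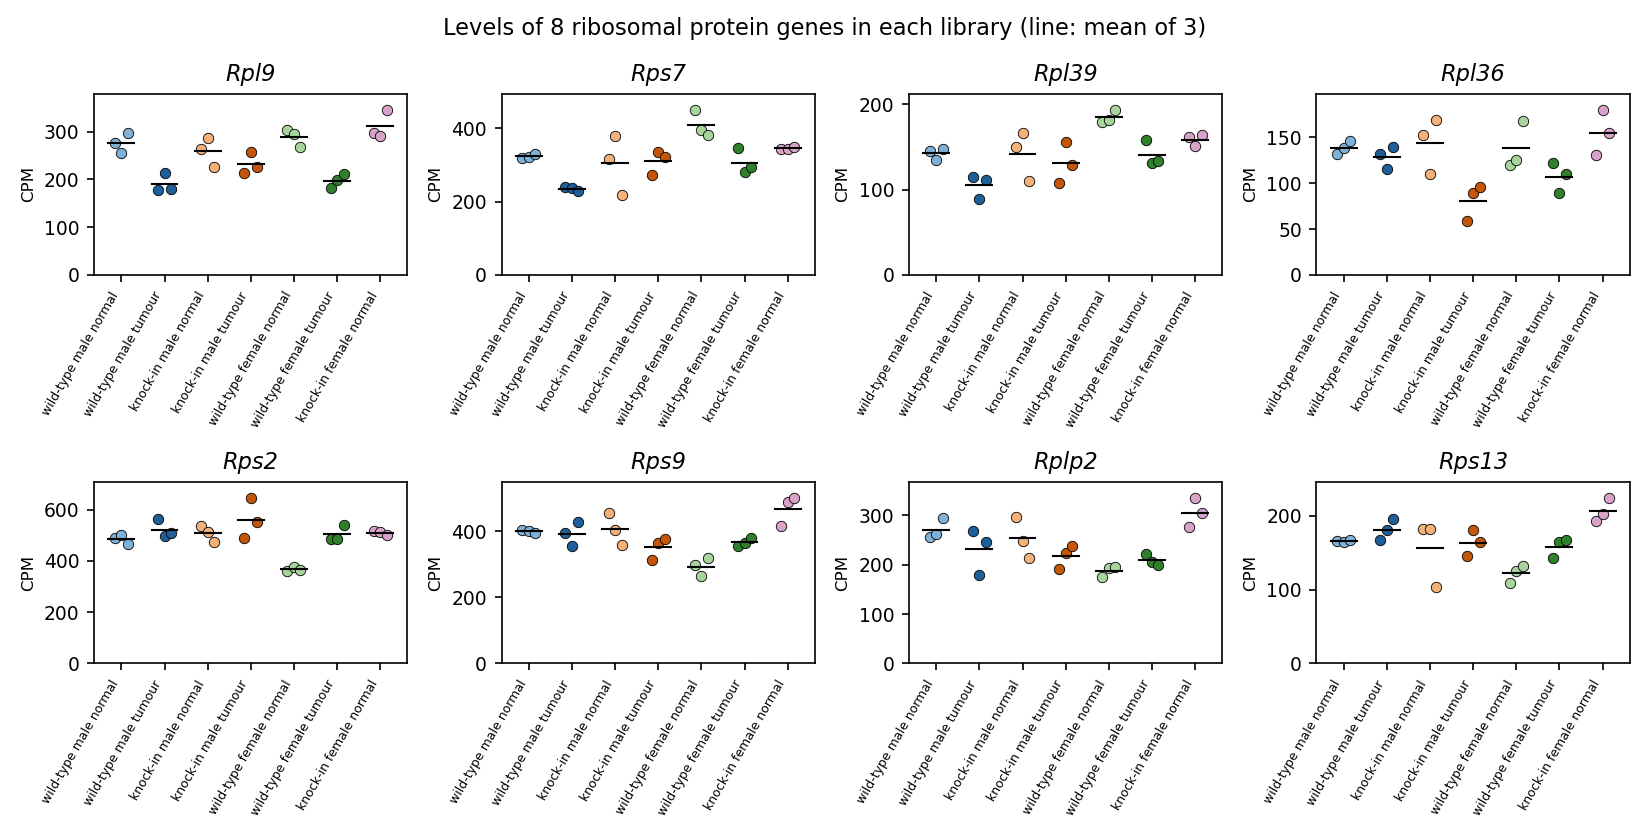
Level (y axis, CPM, from 0) of 8 ribosomal protein genes in each library (points) by group (x axis), with the mean of 3 as a line. Rpl9 is lower in both wild-type tumour groups, Rpl36 is lowest in KMT, and Rps2, Rps9, Rplp2 and Rps13 are lowest in WFN.

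In normal colon of wild-type mice, 4 members were lower in females. This comparison, KFN against WFN and WFT against WFN all use the same WFN libraries, so their values for Rps9, Rps2 and Rplp2 are not independent. Comparing WFN with WMN, 4 members were lower and none higher, with 15.9% of all tested genes called (5.74% higher, 10.2% lower). They were Rplp2 (log2 fold change -0.53, SE 0.14, adjusted p = 0.017), Rps9 (-0.45, SE 0.11, adjusted p = 0.011), Rps2 (-0.40, SE 0.098, adjusted p = 0.011) and Rpl28 (-0.39, SE 0.13, adjusted p = 0.044).
In WMN Rps9 was at 404, 401 and 395 CPM, Rplp2 at 257, 262 and 295 CPM and Rps2 at 489, 502 and 465 CPM. All WFN libraries, given above, were lower. Without WFN replicate 2 a single member passed, and Rplp2 and Rps9 then had adjusted p-values of 0.052 and 0.070. Without WFN replicate 1 the count was 2, and Rplp2 had an adjusted p of 0.074. With GC and length offsets Rps2 was at -0.30 (adjusted p = 0.071).
Over the 75 members the median was 0.05 here, and it was -0.02 with library totals and -0.07 with GC and length offsets, so no direction is read from it. Smooth muscle markers were also lower in WFN for 2 of 8 and fibroblast markers for 3 of 6, and their part was not tested.

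Most members had a positive log2 fold change in knock-in females against knock-in males, and none passed the threshold. Comparing KFN with KMN, 0 of 75 passed by edgeR and 0 by DESeq2. Of all tested genes 0.584% were called (0.182% higher, 0.402% lower). An unadjusted p under 0.05 was found for 24 of the 75 members and for 2433 of the 15936 tested genes. The log2 fold change was above 0 for 71 of 75, with a median of 0.25 against -0.01 over all tested genes. The smallest p belonged to Rpl23 (log2 fold change 0.36, SE 0.12, adjusted p = 0.15) and Rpl21 (0.78, SE 0.26, adjusted p = 0.16). Rpl21 was at 64.1, 82.7 and 133 CPM in KFN and at 63.3, 58.4 and 40.7 in KMN, so 1 KFN library carried much of its mean. Without KMN replicate 2, 2 members passed. Without KMN replicate 3, 0 passed, 67 of 75 were above 0 and the median was 0.16.

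No member passed between tumours of wild-type females and males. Comparing WFT with WMT, 0 of 75 passed by edgeR and 0 by DESeq2. Of all tested genes 0.86% were called (0.402% higher, 0.458% lower). An unadjusted p under 0.05 was found for 4 members and for 3350 of the 15936 tested genes. Rpl39 (log2 fold change 0.42, SE 0.15, adjusted p = 0.12) and Rps7 (0.38, SE 0.14, adjusted p = 0.14) had the smallest p. The X-linked members Rpl10, Rpl36a, Rpl39 and Rps4x were also not called between the sexes in normal colon of wild-type mice, with log2 fold changes of 0.22, -0.04, 0.37 and 0.20.

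Whether effects differed between groups was tested directly. The genotype difference in normal colon was larger in females than in males for Rps9, by 0.65 on the log2 scale (SE 0.16, adjusted p = 0.034), and for Rplp2, by 0.80 (SE 0.20, adjusted p = 0.041). These are 2 of 75 members, with 2.54% of all tested genes called (1.76% higher, 0.778% lower). By DESeq2, 7 passed. Rps9 was 0.67 higher in knock-in females and 0.02 higher in knock-in males, and Rplp2 was at 0.70 and -0.10. In males Rps9 was at 456, 405 and 359 CPM in KMN beside the WMN values above, and Rplp2 at 297, 248 and 214, so the male groups overlapped in both genes. Rps13 had a difference of 0.85 (SE 0.22) and an adjusted p of 0.050171, just above the threshold. Leaving out WFN replicate 1 or 2, WMN replicate 1 or 3, or KFN replicate a or b left 0 members past the threshold, and 4 passed without WFN replicate 3 or KMN replicate 1. Without KMN replicate 2 only Rps13 passed. Without KMN replicate 3 Rps9 and Rplp2 missed the threshold (adjusted p = 0.067 and 0.084), and Rps13 and Rps27l passed.
The tumour effect was not shown to differ between genotypes in males: 0 of 75 members passed by edgeR and 0 by DESeq2. Of all tested genes 1.51% were called (1.14% higher, 0.37% lower). An unadjusted p under 0.05 was found for 7 members and for 4023 of the 15936 tested genes. Without KMN replicate 2, 5 members passed, and 0 passed without KMN replicate 3 or KMT replicate 3. The tumour effect was not shown to differ between the sexes of wild-type mice either, with 0 of 75 by edgeR and 0 by DESeq2. Of all tested genes 1.12% were called (0.929% higher, 0.195% lower). An unadjusted p under 0.05 was found for 2 members and for 2198 of the 15936 tested genes.

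Members were also followed by their role, whatever their values. Rps6, the protein phosphorylated downstream of mTORC1, was at 369 to 401 CPM in WMN, 384 to 386 in WFN, 423 to 479 in KFN and 347 to 359 in WMT, and passed in no comparison. Rpl5 and Rpl11, which bind Mdm2 with the 5S RNA, had log2 fold changes between -0.26 and 0.27 and between -0.18 and 0.22 over the 9 comparisons, without a call. Rps19, a gene mutated in Diamond-Blackfan anaemia, was below 0 in all 3 tumour comparisons, at -0.16, -0.22 and -0.28, and did not pass. Rps3, which also acts in DNA repair, stayed between -0.11 and 0.17.
Rps27a, made as a fusion to ubiquitin, was the least steady of these. It was at 130, 256 and 137 CPM in KMN and at 112, 250 and 249 in KMT, so libraries of the same group differed widely. Its difference of 0.86 between KMT and WMT (SE 0.30) had an adjusted p of 0.061.

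The 10 other genes whose log2 CPM most resembled the members' mean over the 21 libraries were led by Gnb2l1, the ribosome-bound Rack1 gene, at a Pearson correlation of 0.895. Pfdn5, a prefoldin subunit that helps proteins fold, followed at 0.889, then Txndc17, Sod1, Ndufb9, Gm13826, Eef1b2, Fau, Chmp2a and Myl6 at 0.847 to 0.804. Gnb2l1, Fau and Eef1b2 belong to the translation machinery. The correlations describe these 21 libraries, which share scaling and depth.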

How the data were processed

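Ribosomal RNA was removed from total RNA with RNase H, cDNA was primed with random hexamers, and libraries were read on a NovaSeq, per the labels' protocols. The authors deposited raw read counts per gene. Trimmomatic, HISAT2, featureCounts, DESeq2 and mm10 are named in the submitters' processing notes. Their versions, the annotation, strand setting and treatment of multiply matching reads are not given in the sources used here. Columns were matched to titles. In the table header 2 columns carry the same name, so 2 KFN libraries have no replicate number and are called a and b, and 0 other per-sample columns were left unused.

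Counts of all 21 libraries were fitted together in edgeR 4.0.16 (R 4.3.3, limma 3.58.1) with TMM scaling, filterByExpr, 1 coefficient per group and the robust quasi-likelihood F test, two-sided, with Benjamini-Hochberg adjustment over 15936 genes and a threshold of 0.05. Log2 CPM used a prior count of 2. Coding length and GC came from GENCODE M21 (GRCm38), start regions from RefSeq (GRCm38.p6), and near-identical genes from blastn 2.17.0. DESeq2 1.42.0 and mgcv 1.9.3 (offsets for GC and length of the whole transcript) served the alternatives, with Python 3.11.15 and pandas 2.3.3 for tables. On simulated counts for WMT against WMN, 200 of 15734 genes were changed. There 51% of changes of 1 log2 unit and 85% of 2 units were recovered, with 2 false calls. In the data 35.7% of all tested genes were called in that comparison. The median SE was 0.139 for members and 0.211 for all tested genes. Recovery for the ribosomal protein genes themselves was not tested.

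The members and lists were chosen with earlier results of these data known. Named were up to 3 members with the largest positive and 3 with the largest negative change among those called in each comparison (or the 2 with the smallest p), members chosen by role, and paralogs. Other called members were named after their values were seen, and some results are not reported here. No duplicate libraries were found. Replicate numbers paired WMT with WMN by correlation of deviations (0.27, 0.23 and 0.31), a hint from the data alone, and with the replicate block 4 members passed there as without it.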

Additional observations from a re-analysis of the deposited data

Results flagged for a closer look

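The difference between the genotype effects of females and males in normal colon passed the test for 2 of 75 members, or 2.67%, while 2.54% of all tested genes passed, so the members' share was near that of all genes. For Rps9 it was 0.65 on the log2 scale (adjusted p = 0.034 in edgeR), with all 3 KFN libraries above all 3 WFN libraries and overlapping groups in males. For Rplp2 it was 0.80 (adjusted p = 0.041), with the same arrangement of libraries. Both calls were lost in 9 of 21 alternatives, with adjusted p up to 0.099 and 0.12.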

How the results depend on the processing

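Counts of members past the threshold moved by more than 1.5 times as follows, and the cause was not tested. Shares of all genes called under these alternatives are not given here. With only the compared groups fitted, the count was 12 for WMT against WMN, 0 for KMT against KMN, 2 for KMT against WMT, 1 for WFT against WMT and 0 for the difference of genotype effects between the sexes. With DESeq2's test it was 11 for KMT against KMN, 11 for KMT against WMT, 14 for KFN against WFN and 7 for that difference. Library totals gave 6 for WFT against WFN, 15 for KFN against WFN and 4 for that difference. A mean of at least 50 counts gave 8 for KMT against WMT, 14 for KFN against WFN and 4 for that difference. GC and length offsets gave 3 for KMT against WMT, 19 for KFN against WFN and 5 for that difference. The covariate for libraries 152 to 154 gave 4 for WFT against WFN.

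Leaving out 1 library at a time gave 1 to 5 for WMT against WMN, 2 to 12 for KMT against KMN, 5 to 24 for WFT against WFN, 0 to 7 for KMT against WMT, 5 to 12 for KFN against WFN, 1 to 5 for WFN against WMN and 0 to 2 for KFN against KMN. It gave 0 to 5 for the difference of tumour effects between genotypes and 0 to 4 for the difference of genotype effects between the sexes. KMN against WMN, WFT against WMT and the difference of tumour effects between the sexes stayed at 0.

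The median log2 fold change of members changed sign in 3 comparisons close to 0 and in the 2 differences of tumour effects. For KMN against WMN it was 0.037 without KMN replicate 3, and without 1 library at a time it ran down to -0.16. For WFT against WMT it was 0.0059 with library totals, 0.013 with the covariate, 0.053 without WFT replicate 2 and 0.010 without WMT replicate 3, with a lowest value of -0.11 without WFT replicate 1. For WFN against WMN it was -0.025 with library totals, -0.072 with GC and length offsets and -0.094 with these and the replicate block. For the difference between genotypes it was 0.020 without KMT replicate 1 and at its lowest -0.16 without KMN replicate 3. For that between the sexes it was 0.054 with library totals, 0.023 with the covariate and 0.024 without WFT replicate 2, with a lowest value of -0.15 without WFT replicate 1.

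The replicate block moved the count for KMT against WMT from 5 to 8, and the same 18 libraries without the block also gave 8, an alternative chosen after seeing the data. With the block and GC and length offsets the count was 0 there and 7 for WMT against WMN. The block changed no other count by over 1.5 times, and of 30 single results only Rps4l in WFT against WFN lost its call (adjusted p = 0.057 in edgeR). Outside WMT against WMN the numbers did not pair the samples (mean correlation -0.19 for KMT against WMT). No paired analysis was possible for comparisons with KFN because 2 of its libraries carry no replicate number.

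Without Rn45s and mitochondrial genes in the denominator, the members' mean share was 2.35% in WMN, 2.35% in WMT, 2.31% in KMN, 2.15% in KMT, 2.18% in WFN, 2.32% in WFT and 2.61% in KFN, and KFN libraries overlapped those of KMN and WFT. Without the most abundant member it was 2.06% in WMN, 1.96% in WMT and 2.34% in KFN. For the 6 members with at most 22 counts in every library, no difference was detectable at these counts apart from the calls given.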
